A study of Mus musculus with 18 samples.

Results

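Mitochondrial ribosomal proteins are the proteins, encoded in the nucleus, of the ribosome that works inside mitochondria. Their transcripts were taken as all rows named Mrpl or Mrps followed by a number, without pseudogene names, that averaged at least 1 CPM (the usual library-size unit for counts, here with TMM-scaled library sizes) over the libraries of a table. The names gave 78 of the 54279 rows of each table, 49 with Mrpl names and 29 with Mrps names, after 5 pseudogene names were left out. All 78 passed the filter in the drug experiment, among 13460 genes tested. In the untreated experiment 77 passed, among 13569 tested, and Mrpl20 was left out with 33, 5 and 2 counts in Vhl libraries and 3, 12 and 5 in control libraries.

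The cells were OPCs (oligodendrocyte progenitor cells) of the mouse, which divide and can become myelin-forming cells. They were derived from epiblast stem cells and grown in medium with the growth factors Fgf2 and Pdgfa. In the first experiment, untreated OPCs with a CRISPR edit of Vhl were compared with untreated CRISPR control OPCs. In the second, Vhl cells and control cells were given the MEK inhibitor AZD8330 at 300 nM, or DMSO as its vehicle, for 14 hours. The 4 groups of that experiment were Vhl cells with AZD8330, control cells with AZD8330, Vhl cells with DMSO and control cells with DMSO. All 6 groups, the 2 untreated ones included, have 3 libraries with the letters A, B and C. The labels leave unsaid whether the edited cells were a clone or a pool, and whether libraries with different letters were grown apart; the p-values therefore refer to the scatter among these libraries alone, and part of it may be technical.

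A mitochondrial ribosome has a large subunit, which joins amino acids, and a small subunit, which reads the messenger RNA. It makes a few proteins of the respiratory chain and the ATP synthase, all encoded in mitochondrial DNA, so every one of its own proteins is imported from the cytosol. Some of these proteins have a bacterial counterpart and others exist only in mitochondria. Names do not always follow the structure: Mrps18a and Mrps30 sit in the large subunit, and Mrps36 is now known as a part of the alpha-ketoglutarate dehydrogenase complex. OPCs divide in response to Pdgfa through MEK and ERK signalling, and VHL is the part of a ubiquitin ligase that has HIF, the hypoxia-inducible factor, broken down in normal oxygen.

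Libraries held 12391077 to 16349676 estimated counts in the drug experiment and 14594148 to 21160250 in the untreated experiment. The Vhl transcript stayed present after the edit. It lay between 92.0 and 105 CPM in Vhl cells with AZD8330, against 137 to 140 CPM in control cells with AZD8330. With DMSO it lay between 90.04 and 94.1 CPM in Vhl cells and between 102 and 109 CPM in control cells, and untreated between 74.1 and 90.2 CPM in Vhl cells and between 117 and 125 CPM in control cells. All 7 OPC markers used, Olig1, Olig2, Sox10, Pdgfra, Cspg4, Nkx2-2 and Ptprz1, passed the filter in both experiments, with summed levels of 7628 to 12280 CPM in every library. Of 5 markers each, none of microglia, 1 of endothelium and 1 of mesenchyme passed in the drug experiment, with sums of at most 1.26, 9.43 and 3.87 CPM; the endothelial marker Cldn5 was at 0 in all 4 groups there and, of 5 pluripotency markers, Pou5f1 and Zfp42 were at 0 in every group while 3 passed the filter in the drug experiment and 2 in the untreated one.

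AZD8330 lowered most of these transcripts in control cells. By edgeR's quasi-likelihood test, with p-values adjusted by Benjamini-Hochberg over all tested genes, 59 of 78 members fell and 3 rose. Among all tested genes 31.7% fell and 29.1% rose. The members' median log2 change was -0.48, against -0.01 over all tested genes. Of the Mrpl names 38 of 49 fell and 2 rose, with a median of -0.47, and of the Mrps names 21 of 29 fell and 1 rose, with a median of -0.48. Of the members with a bacterial counterpart 35 of 48 fell, and of those found only in mitochondria 23 of 29 fell. In bulk RNA, fewer cells of a type and less RNA per cell cannot be told apart.

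The summed level of all 78 members was 3115, 3106 and 2994 CPM in Vhl cells with AZD8330, against 3727, 3749 and 3623 CPM in Vhl cells with DMSO. It was 3252, 3267 and 3261 CPM in control cells with AZD8330, against 4505, 4369 and 4411 CPM in control cells with DMSO. No library with AZD8330 reached the lowest library with DMSO. Control cells with DMSO had the highest group mean for 65 of 78 members. The lowest group mean was that of Vhl cells with AZD8330 for 47 members and that of control cells with AZD8330 for 22. The order of group means was not counted over all tested genes, so these counts have no background.

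**Figure D1:**
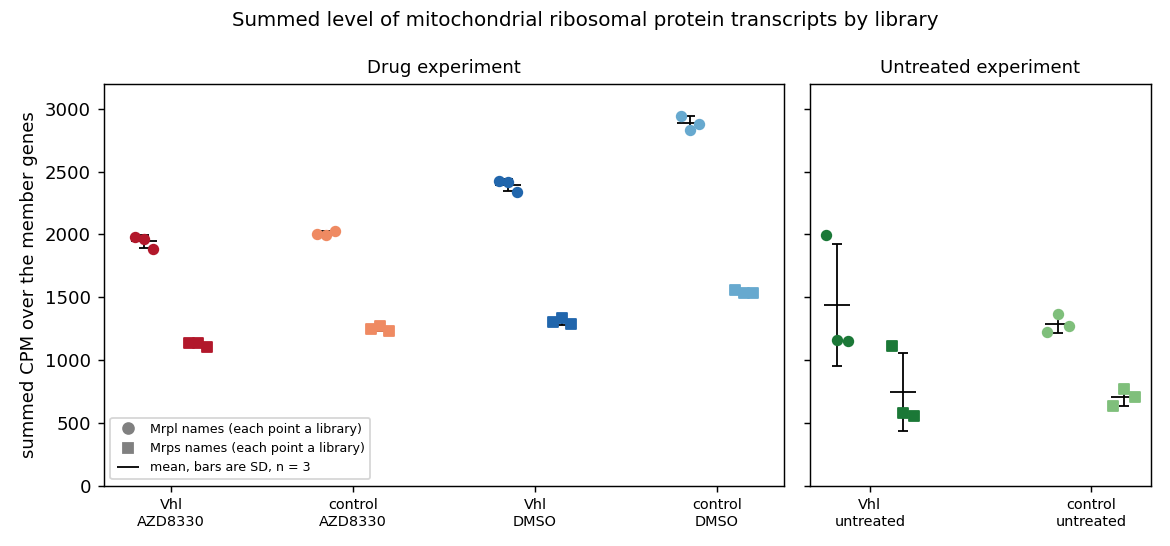
Summed CPM of Mrpl names (circles) and Mrps names (squares) in each library of the drug experiment (left) and the untreated experiment (right); bars give the mean and SD of 3 libraries. In the drug experiment both sums are highest in control cells with DMSO, and in the untreated experiment Vhl library A lies far above the other libraries.

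Mrpl12 fell furthest in control cells. Its protein forms the stalk of the large subunit to which translation factors bind, and it has also been described to bind the mitochondrial RNA polymerase. It stood at 63.1, 64.0 and 64.0 CPM in control cells with AZD8330 and at 173, 166 and 175 CPM in control cells with DMSO. It stood at 60.2, 55.4 and 60.4 CPM in Vhl cells with AZD8330 and at 136, 124 and 117 CPM in Vhl cells with DMSO. The highest library with AZD8330 thus stayed below the lowest with DMSO by a wide gap, and the log2 change was -1.10 ± 0.05 (SE, adjusted p = 2.7e-09, edgeR) in Vhl cells and -1.43 ± 0.05 (adjusted p = 1.2e-10) in control cells.

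The next large-subunit names by p-value in control cells were Mrpl42, Mrpl18 and Mrpl15. Mrpl42, a subunit found only in mitochondria, had 55.9, 57.2 and 60.8 CPM in control cells with AZD8330, against 121, 114 and 113 CPM in control cells with DMSO. In Vhl cells it had 52.1, 57.0 and 52.9 CPM with AZD8330, against 84.0, 89.3 and 82.5 CPM with DMSO. Both pairs of groups stood apart, with log2 changes of -0.66 ± 0.05 in Vhl cells and -1.004 ± 0.05 in control cells. Mrpl18, a protein of the central protuberance, fell by 0.72 on the log2 scale in Vhl cells and by 1.15 in control cells. Its level was 48.4, 44.5 and 38.2 CPM in control cells with AZD8330, against 98.3, 98.3 and 95.1 CPM with DMSO. In Vhl cells it was 51.2, 49.1 and 48.5 CPM with AZD8330, against 88.3, 80.2 and 76.8 CPM with DMSO, again without overlap.

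Mrpl15, which has a bacterial counterpart in the core of the large subunit, fell by 0.58 in Vhl cells and by 0.94 in control cells on the log2 scale. It had 45.2, 44.8 and 39.1 CPM in control cells with AZD8330, against 86.4, 82.9 and 78.3 CPM with DMSO. Mrpl17, near the exit of the peptide tunnel, was among the 4 Mrpl names with the smallest p in Vhl cells, with 83.3, 75.8 and 81.3 CPM with AZD8330, against 114, 120 and 121 CPM with DMSO, a change of -0.56 ± 0.05.

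Among Mrps names that fell in control cells the smallest p-values belonged to Mrps27, Mrps2, Mrps30 and Mrps35. Mrps27, a protein with pentatricopeptide repeats, had 35.6, 34.4 and 37.2 CPM in control cells with AZD8330, against 87.9, 85.0 and 76.9 CPM in control cells with DMSO. It had 31.6, 30.5 and 31.5 CPM in Vhl cells with AZD8330, against 57.4, 53.3 and 54.1 CPM in Vhl cells with DMSO. The 4 groups did not overlap in any pair. The AZD8330 changes were -0.82 ± 0.06 in Vhl cells (adjusted p = 1.6e-07, edgeR) and -1.22 ± 0.06 in control cells (adjusted p = 1.5e-09).

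Mrps2, with a bacterial counterpart, stood at 41.6, 42.2 and 43.1 CPM in control cells with AZD8330 and at 77.2, 77.8 and 79.9 CPM in control cells with DMSO. In Vhl cells it stood at 43.3, 38.7 and 41.7 CPM with AZD8330 and at 62.3, 63.9 and 62.9 CPM with DMSO. The groups with AZD8330 lay below those with DMSO, and the log2 change was -0.61 ± 0.05 in Vhl cells and -0.89 ± 0.05 in control cells. Mrps30, which sits in the large subunit in spite of its name, had 31.6, 33.6 and 37.6 CPM in control cells with AZD8330, against 58.9, 59.9 and 56.5 CPM with DMSO. In Vhl cells it had 32.4, 36.3 and 33.9 CPM with AZD8330, against 45.7, 47.0 and 48.3 CPM with DMSO. It changed by -0.46 ± 0.07 in Vhl cells and by -0.77 ± 0.07 in control cells. Mrps35, found only in mitochondria, had 32.1, 34.7 and 29.3 CPM in control cells with AZD8330, against 59.5, 52.8 and 57.4 CPM with DMSO. It changed by -0.65 ± 0.08 in Vhl cells and by -0.82 ± 0.08 in control cells. Mrps10, of the head of the small subunit, had 33.0, 36.1 and 31.3 CPM in Vhl cells with AZD8330, against 51.4, 49.0 and 46.7 CPM with DMSO. Its change was -0.55 ± 0.07 in Vhl cells and -0.57 ± 0.07 in control cells. All of these passed the test in both kinds of cells.

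In Vhl cells 45 of 78 members fell with AZD8330 and 2 rose, where 25.6% of all tested genes fell and 25.8% rose. The median log2 change of the members was -0.27, against 0.03 over all tested genes. The Mrpl names gave 25 of 49 lower with a median of -0.26, and the Mrps names 20 of 29 lower with a median of -0.29. The comparisons in control and in Vhl cells share no library, and 44 members fell in both, which is 74.6% of the 59 and 97.8% of the 45. The same overlap over all tested genes was not counted, so these shares have no background. Sums of the markers of other cell types, in CPM of the unscaled library totals, moved with AZD8330 too. The 6 astrocyte markers together lay between 713 and 753 CPM in Vhl cells with AZD8330 and between 1310 and 1370 CPM in control cells with AZD8330, against 201 to 219 CPM in Vhl cells with DMSO and 292 to 322 CPM in control cells with DMSO. All 6 passed the filter and none was at 0, but most of their sum was Gja1 in each group.

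The 6 neuron markers summed to 2448 to 2503 CPM in Vhl cells with AZD8330 and 2095 to 2119 CPM in control cells with AZD8330. With DMSO they summed to 1447 to 1587 CPM in Vhl cells and 974 to 1006 CPM in control cells, and Syt1 was at 0 in both DMSO groups. The 7 markers of maturing oligodendrocytes summed to 377 to 405 CPM in Vhl cells with AZD8330 and 445 to 475 CPM in control cells with AZD8330, against 166 to 183 CPM and 140 to 143 CPM in the same cells with DMSO. Mog was at 0 in both AZD8330 groups and in control cells with DMSO. In each group most of the neuron sum was Map2, and most of the maturing oligodendrocyte sum was Cnp. As a sum the 5 pluripotency markers fell with AZD8330, as most members did. The 5 markers summed to 4.79 to 6.28 CPM in Vhl cells with AZD8330 and 5.94 to 7.32 CPM in control cells with AZD8330. With DMSO they summed to 16.0 to 20.3 CPM in Vhl cells and 18.5 to 22.9 CPM in control cells. Most of that sum was Esrrb, with a log2 change of -2.23 ± 0.23 in Vhl cells and -2.42 ± 0.23 in control cells. Pou5f1 and Zfp42 were at 0, and Nanog went the other way at low levels. Nanog averaged 1.09 CPM in Vhl cells with AZD8330, against 0.352 CPM with DMSO. In control cells it averaged 2.42 CPM with AZD8330, against 0.552 CPM with DMSO. The part of these shifts in the members' changes was not tested.

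**Figure D2:**
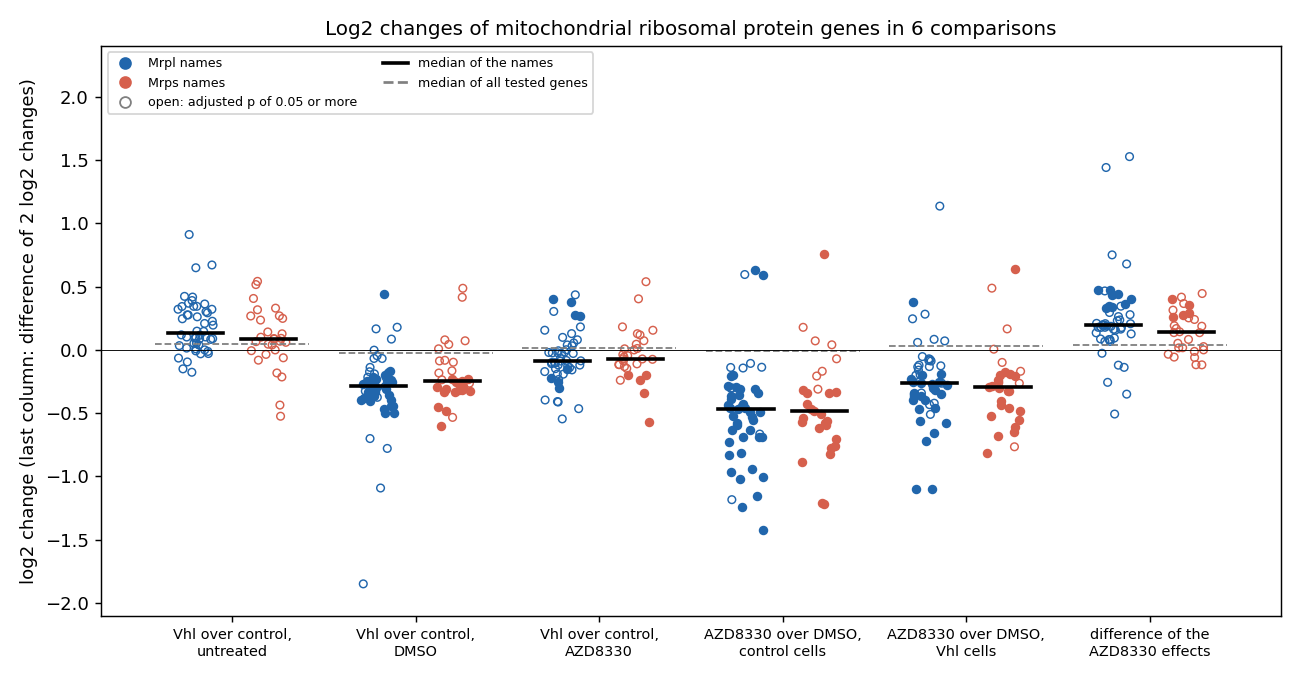
Log2 change of each member in the 6 comparisons, Mrpl names in blue and Mrps names in red, filled where the adjusted p was under 0.05; black bars mark the median of the names and grey dashes the median of all tested genes. The members lie below the dashes with AZD8330 and with Vhl under DMSO, and above them in the difference of the AZD8330 effects.

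Mrps6, Mrpl48 and Mrpl33 went the other way. Mrps6, the counterpart of a bacterial small-subunit protein, had 248, 245 and 241 CPM in control cells with AZD8330, against 149, 140 and 146 CPM in control cells with DMSO. In Vhl cells it had 164, 171 and 160 CPM with AZD8330, against 109, 105 and 104 CPM with DMSO. It was thus the only Mrps name that rose with AZD8330, by 0.64 ± 0.04 in Vhl cells (adjusted p = 1.6e-08, edgeR) and 0.76 ± 0.04 in control cells (adjusted p = 1.4e-09) on the log2 scale. Its 4 groups did not overlap in any pair, and it was lower in Vhl cells under both treatments.

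The Mrps6 gene shares its start region with Slc5a3, the sodium-coupled transporter of myo-inositol, which was picked out after its values were seen. In GENCODE M21 on GRCm38, Mrps6 lies on chr16:92058270-92112227 and Slc5a3 on chr16:92058322-92087473, both on the plus strand. Of the 31-base words of the annotated Mrps6 transcripts, 8.59% also occur in Slc5a3 transcripts and 18.4% in the read-through gene Gm49711. Slc5a3 had 196, 189 and 193 CPM in control cells with AZD8330, against 101, 92.2 and 96.0 CPM in control cells with DMSO. In Vhl cells it had 138, 126 and 125 CPM with AZD8330, against 70.6, 79.9 and 89.8 CPM with DMSO. Its changes had the direction of those of Mrps6 in each of these comparisons, with 0.69 ± 0.07 for AZD8330 in Vhl cells, 1.001 ± 0.07 for AZD8330 in control cells, -0.57 ± 0.07 for Vhl with AZD8330 and -0.27 ± 0.07 for Vhl with DMSO. The share of reads that the 2 genes could exchange was not tested.

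Mrpl48, a protein of the central protuberance, rose with AZD8330 in both kinds of cells. It had 40.5, 41.1 and 40.8 CPM in control cells with AZD8330, against 23.1, 26.1 and 29.9 CPM in control cells with DMSO, and 37.9, 34.4 and 36.4 CPM in Vhl cells with AZD8330, against 28.7, 28.2 and 26.9 CPM in Vhl cells with DMSO. The log2 changes were 0.37 ± 0.08 in Vhl cells and 0.63 ± 0.08 in control cells. Mrpl33, a small protein of the large subunit, had 10.04, 8.30 and 8.05 CPM in control cells with AZD8330, against 5.85, 6.17 and 5.51 CPM in control cells with DMSO. That rise of 0.59 ± 0.15 had an adjusted p of 0.0042 by edgeR, and without a filter on low counts it was 0.56 with an adjusted p of 0.0503.

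**Figure D3:**
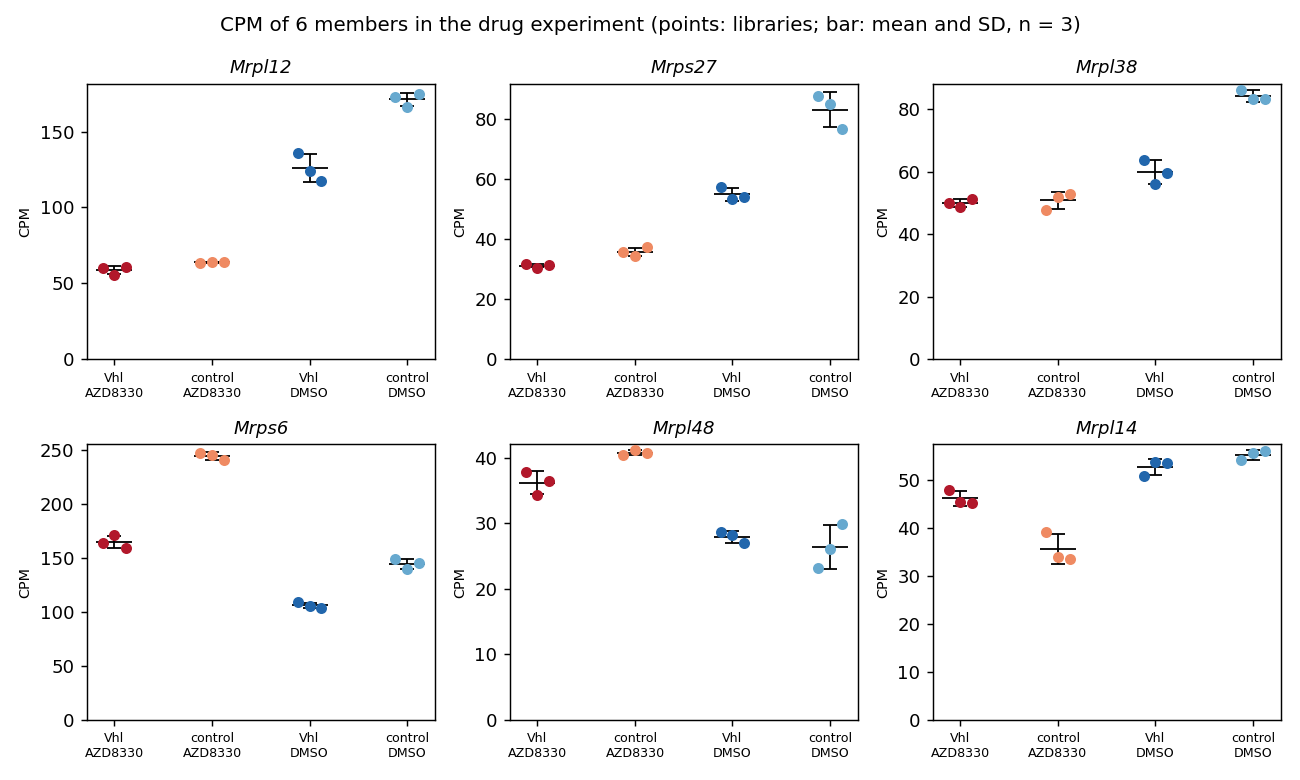
CPM of 6 members in each library of the drug experiment, with the mean and SD of 3 libraries per group. Mrpl12, Mrps27 and Mrpl38 are lowest with AZD8330, Mrps6 and Mrpl48 are highest in control cells with AZD8330, and Mrpl14 is lowest in control cells with AZD8330.

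Promoters were searched for short motifs, and stretches with the core of ETS sites are shown because it was more frequent in the members' windows than in those of tested genes; most members do not hold it. RefSeq promoters (GRCm38.p6, 250 bases before to 50 after the start) were matched by symbol for 69 of 78 members, in 75 windows. The letters CCGGAAG, the core bound by ETS factors such as the alpha subunit of the GA-binding protein, were searched on both strands. They occurred in 34.7% of the members' windows, in 17.1% of 12634 windows of tested genes and in 8.86% of all 32851 windows. Of the 26 member genes with the core, 19 fell with AZD8330 in control cells and 2 rose; of the 43 without it, 32 fell and 1 rose. The following stretches lie before the start of 5 members that fell and of Mrps18c, which did not pass the test; capitals mark the core, read in the direction of the gene.
Mrps27, chr13:99344723-99344759, plus strand: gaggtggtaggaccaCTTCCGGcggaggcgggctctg
Mrpl34, chr8:71464874-71464910, plus strand: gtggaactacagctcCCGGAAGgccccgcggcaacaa
Mrpl17, chr7:105811303-105811337, minus strand: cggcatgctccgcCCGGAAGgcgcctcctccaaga
Mrpl58, chr11:115403720-115403751, plus strand: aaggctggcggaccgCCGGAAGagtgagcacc
Mrps22, chr9:98601680-98601705, minus strand: caaaaacctctcgagCCGGAAGttgc
Mrps18c, chr5:100798588-100798624, plus strand: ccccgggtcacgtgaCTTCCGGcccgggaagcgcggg
In these stretches the core begins 48 bases before the RefSeq start in Mrps27, 37 in Mrpl34, 237 in Mrpl17, 17 in Mrpl58, 11 in Mrps22 and 156 in Mrps18c. The stretch of Mrps18c also holds the E-box letters CACGTG, left in lower case. Other cores were rarer or differed from the background by fewer percentage points. The NRF1 core GCATGCGC was in 10.7% of members' windows, against 5.3% of those of tested genes. The E-box CACGTG, which MYC and related factors bind, was in 9.33%, against 9.67%. ACGTG or GCGTG, the core of HIF sites, which takes in every E-box, was in 66.7%, against 62.0%. The letters AAGATGGC, a core of YY1 sites added to the search after the windows were seen, were in 16.0%, against 4.38%. In proportion to the background this was a larger excess than that of the ETS core. Of the 12 member genes with the YY1 letters, 11 fell with AZD8330 in control cells and 0 rose. Of the 57 without them, 40 fell and 3 rose. No motif was tested against the changes. A match describes the letters in a window and not binding.

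The start regions of Mrpl12, which fell furthest in control cells, and Mrps6, which rose, are given for comparison, 150 bases each, up to the base before the GENCODE start; capitals mark matches to any of the cores above.
Mrpl12, chr11:120484463-120484612, plus strand: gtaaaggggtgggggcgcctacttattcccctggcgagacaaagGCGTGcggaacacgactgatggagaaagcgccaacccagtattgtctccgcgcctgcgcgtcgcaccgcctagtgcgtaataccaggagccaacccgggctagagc
Mrps6, chr16:92058120-92058269, plus strand: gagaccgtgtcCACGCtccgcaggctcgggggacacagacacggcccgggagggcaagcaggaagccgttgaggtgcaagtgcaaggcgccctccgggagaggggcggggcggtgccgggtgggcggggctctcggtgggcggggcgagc
Each held a single match, to the HIF core, and neither held the ETS, NRF1, E-box or YY1 letters in this stretch.

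**Figure D4:**
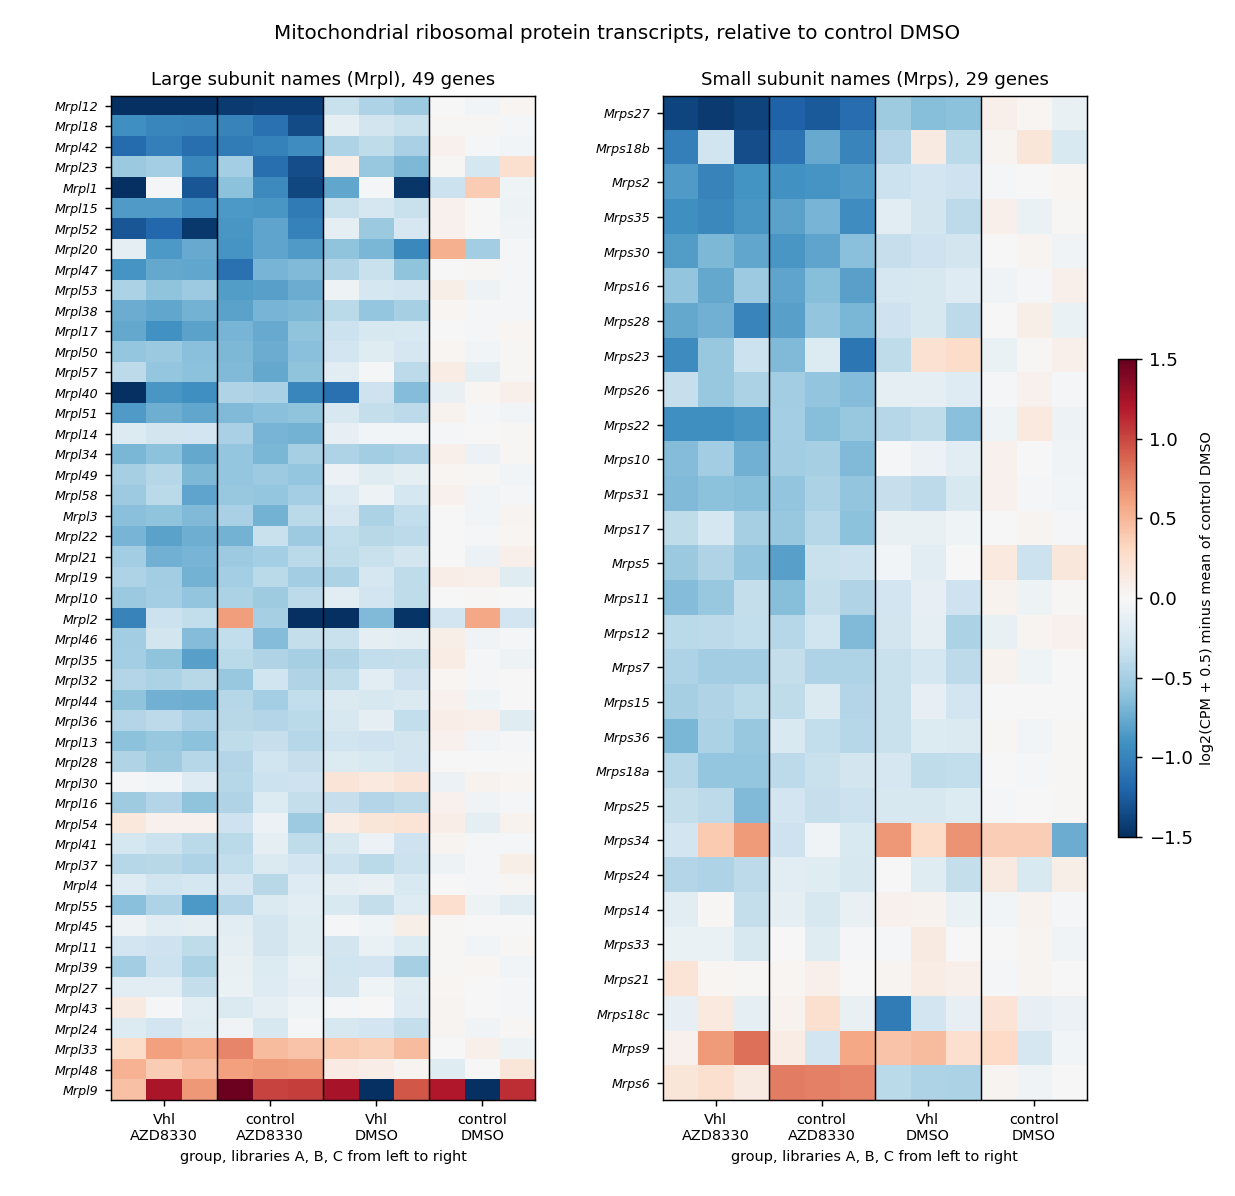
Log2(CPM + 0.5) of all 78 members in the 12 libraries of the drug experiment, minus the mean of control cells with DMSO, with Mrpl names left and Mrps names right, ordered by the mean in control cells with AZD8330; the colour scale ends at 1.5 in either direction. Most rows are blue with AZD8330 and paler blue in Vhl cells with DMSO, and Mrps6 is red with AZD8330 and blue in Vhl cells with DMSO.

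Under DMSO the Vhl edit also lowered many members. In Vhl cells 43 of 78 members were lower than in control cells and 1 was higher, where 18.5% of all tested genes were lower and 13.8% higher. The median log2 change was -0.26, against -0.03 over all tested genes. Of the Mrpl names 28 of 49 were lower and 1 higher, and of the Mrps names 15 of 29 were lower. The direction of the calls over all genes depends on the scaling: with TMM 1851 genes were higher and 2492 lower, and with total counts alone 2347 were higher and 1788 lower, with 33 members lower and 2 higher. The difference between the members' median and that of all genes was -0.239 under either scaling. A change of scaling moves the log2 changes of all genes by nearly the same amount, so this difference cannot test the scaling. This comparison and that of AZD8330 in control cells share the control DMSO libraries.

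Mrps6 had the smallest p here, at -0.45 ± 0.04 (adjusted p = 2.0e-06, edgeR). Mrps27 followed at -0.60 ± 0.06. Mrpl38, found only in mitochondria, had 63.6, 55.9 and 59.7 CPM in Vhl cells, against 86.2, 83.1 and 83.1 CPM in control cells, a change of -0.50 ± 0.06. Mrpl12 and Mrpl42 both changed by -0.45 ± 0.05. Mrpl34, with 49.3, 47.3 and 48.8 CPM in Vhl cells, against 71.8, 64.5 and 68.9 CPM in control cells, changed by -0.50 ± 0.06. In the small subunit, Mrps7, which lies in the head, had 79.1, 82.9 and 75.5 CPM in Vhl cells, against 104, 94.9 and 100 CPM in control cells, a change of -0.33 ± 0.05, and Mrps2 changed by -0.31 ± 0.05. None of these groups overlapped.

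Mrpl33 was the member that was higher, with 7.82, 7.65 and 8.32 CPM in Vhl cells, against 5.85, 6.17 and 5.51 CPM in control cells. The change of 0.44 ± 0.15 had an adjusted p of 0.041 by edgeR. Without any of the 6 libraries compared it did not pass, with adjusted p-values of 0.0654 to 0.11. The largest fitted fall, -1.85 for Mrpl2, belonged to a gene near the filter, at 0.0798, 1.71 and 0.756 CPM in Vhl cells and 2.35, 4.69 and 2.36 CPM in control cells, and it did not pass.

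With AZD8330, Vhl and control cells differed at few members. In Vhl cells 9 of 78 were lower and 4 higher, where 14% of all tested genes were lower and 16% higher, and neither share of the members exceeded that over all tested genes. For lower calls this depends on the processing: with DESeq2 size factors 17 of 78 members were lower, against 17.2% of all tested genes, and with DESeq2's Wald test 15 of 78, against 17.1%, both larger shares among the members. The median was -0.07, against 0.01 over all tested genes. All 9 lower members were among the 43 that were lower under DMSO, which is 20.9% of the 43, and these 2 comparisons share no library. Here too the overlap over all tested genes was not counted. With DESeq2 size factors 3 members were higher, and over all genes 1796 were higher and 2318 lower in place of 2149 and 1884.

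The 9 lower members were Mrpl13, Mrpl39, Mrpl44, Mrpl51, Mrps6, Mrps18a, Mrps22, Mrps27 and Mrps36. Mrps6 changed most, by -0.57 ± 0.04 (adjusted p = 1.2e-07, edgeR). Mrpl13, with a bacterial counterpart, had 85.9, 88.7 and 86.4 CPM in Vhl cells, against 102, 104 and 98.6 CPM in control cells, a change of -0.22 ± 0.04. Mrpl39, which resembles a threonyl-tRNA synthetase, had 43.5, 49.97 and 45.0 CPM in Vhl cells, against 57.8, 54.1 and 58.4 CPM in control cells. Mrpl44, with a ribonuclease III fold, had 21.8, 20.1 and 19.8 CPM in Vhl cells, against 24.7, 23.2 and 25.8 CPM in control cells. In each case the groups did not overlap, and the changes of Mrpl39 and Mrpl44 were -0.30 ± 0.07 and -0.26 ± 0.07.

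Mrpl51, found only in mitochondria, had 59.8, 64.9 and 62.8 CPM in Vhl cells, against 67.9, 69.6 and 70.8 CPM in control cells. Mrpl51 changed by -0.15 ± 0.05 and Mrps22 by -0.34 ± 0.08. Mrps22, a small-subunit protein known from human mitochondrial disease, had 31.04, 31.02 and 32.2 CPM in Vhl cells, against 41.5, 37.9 and 39.9 CPM in control cells. The 4 higher members all had Mrpl names. Mrpl14, at the interface of the subunits, had 47.9, 45.4 and 45.1 CPM in Vhl cells, against 39.2, 33.8 and 33.6 CPM in control cells, a change of 0.38 ± 0.06 (adjusted p = 0.00062, edgeR). Mrpl54 had 48.7, 45.5 and 45.4 CPM in Vhl cells, against 34.9, 41.0 and 29.6 CPM in control cells. Mrpl30 had 35.1, 34.7 and 31.1 CPM in Vhl cells, against 26.4, 28.5 and 28.7 CPM in control cells. Mrpl53 had 27.7, 25.4 and 26.4 CPM in Vhl cells, against 21.5, 21.9 and 22.9 CPM in control cells. None of these groups overlapped, and the changes were 0.40 ± 0.10 for Mrpl54, 0.27 ± 0.07 for Mrpl30 and 0.26 ± 0.08 for Mrpl53. Of the 31-base words of Mrpl53 transcripts, 84.4% also occur in another annotated gene, so its counts could be shared. Without Vhl library A with AZD8330, Mrpl14 alone remained higher and 18 of 78 members were lower. Of all tested genes 11.8% were higher and 15.9% lower in that run, so the share lower was larger among the members. The number higher was 2 without control library B, without control library C or without Vhl library B with AZD8330. Of all tested genes 11.5% to 11.7% were higher in those runs.

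**Figure D5:**
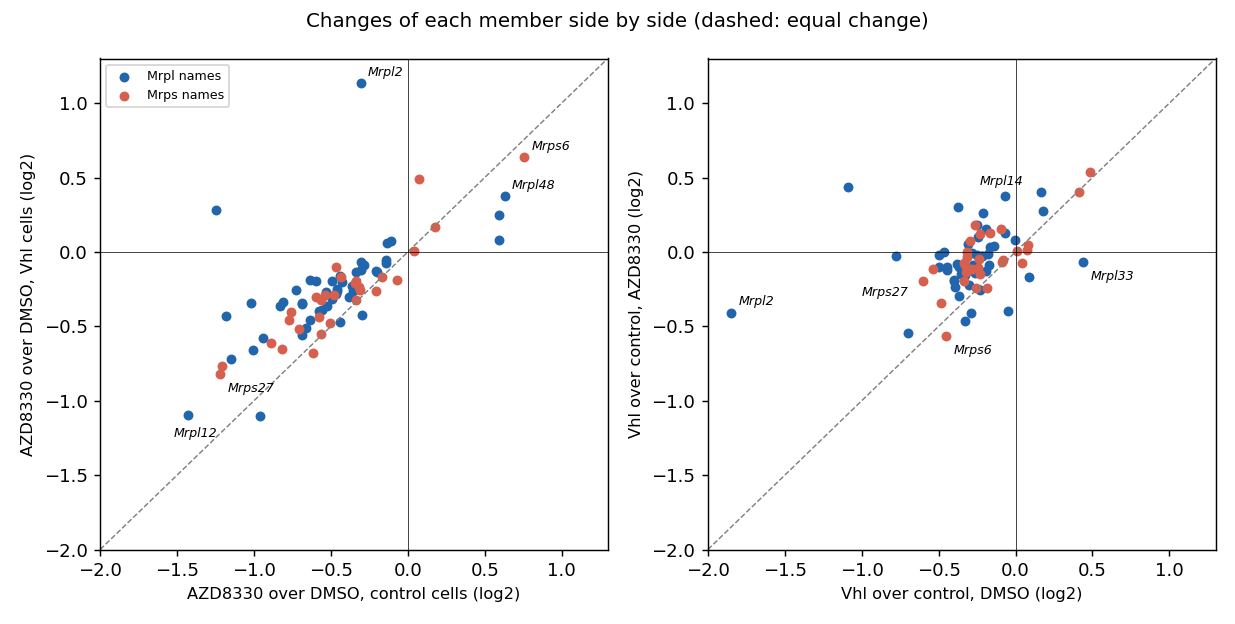
Log2 change of each member with AZD8330 in Vhl cells against control cells (left) and with the Vhl edit under AZD8330 against DMSO (right); the dashed line marks equal change. In the left plot most members lie below 0 on both axes and above the line, with Mrpl12 and Mrps27 at the lower end. Mrps6 and Mrpl48 lie above 0 on both axes, and Mrpl2, a gene near the filter, lies highest for Vhl cells. In the right plot most lie below 0 under DMSO and nearer to 0 under AZD8330.

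The AZD8330 effect was tested for a difference between Vhl and control cells with an interaction term. For 14 of 78 members the effect was higher, which here means a smaller fall, in Vhl cells and for 0 it was lower, where 7.81% of all tested genes were higher and 4.96% lower. At an unadjusted p under 0.05 there were 30 of 78 members, against 3450 of all 13460 tested genes; of the 30, Mrpl33 at -0.51 and Mrps6 at -0.12 had the opposite sign. The median difference was 0.19, against 0.03 over all tested genes. Mrpl38 had the smallest p, with an AZD8330 change of -0.26 ± 0.06 in Vhl cells and -0.73 ± 0.06 in control cells, a difference of 0.47 ± 0.08 (adjusted p = 0.0021, edgeR). Mrpl50, found only in mitochondria, had 66.5, 67.7 and 64.1 CPM in Vhl cells with AZD8330 and 62.1, 59.0 and 64.2 CPM in control cells with AZD8330, and 81.2, 87.4 and 83.8 CPM in Vhl cells with DMSO and 101, 96.8 and 100 CPM in control cells with DMSO. It changed by -0.35 ± 0.05 in Vhl cells and -0.69 ± 0.05 in control cells. Mrpl14 changed by -0.19 ± 0.06 in Vhl cells and -0.63 ± 0.06 in control cells. It was not called between Vhl and control cells with DMSO.

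Mrpl42 differed by 0.34 ± 0.08 and Mrpl12 by 0.33 ± 0.08, although both fell in both kinds of cells. In the small subunit Mrps27 differed by 0.40 ± 0.09, Mrps2 by 0.28 ± 0.07, Mrps7 by 0.26 ± 0.07 and Mrps16, with a bacterial counterpart, by 0.35 ± 0.10. Mrps16 had 33.2, 29.3 and 34.4 CPM in Vhl cells with AZD8330, against 42.0, 42.4 and 43.8 CPM in Vhl cells with DMSO, and 28.8, 32.0 and 28.3 CPM in control cells with AZD8330, against 48.2, 49.5 and 53.1 CPM in control cells with DMSO. The number of members with a higher effect depended on the AZD8330 library left out. It was 12 without control library A, where 6.19% of all tested genes were higher. It was 1 without control library B, 5 without control library C, 2 without Vhl library A, 5 without Vhl library B and 7 without Vhl library C. In the runs with 1 to 7 members, 3.46% to 4.32% of all tested genes were higher, against 7.81% with all libraries. The median over all tested genes was -0.04 to -0.05 in those runs, against 0.03. The difference between the members' median and that of all genes was 0.153 with all libraries and lay between 0.123 and 0.192 without any 1 of the 12. The split over all tested genes depended on the scaling as well, with 1051 higher and 667 lower by TMM, 681 and 873 by total counts, and 819 and 737 by DESeq2 size factors.

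Other genes of mitochondrial translation and biogenesis were counted with AZD8330 in control cells, where 31.7% of all tested genes fell and 29.1% rose. Of 5 other subunits of the mitochondrial ribosome that were tested, all fell, led by Ptcd3, a pentatricopeptide protein of the small subunit, at -1.05 ± 0.06, Chchd1 at -0.73 ± 0.08 and Gadd45gip1 at -0.48 ± 0.09. Of 27 genes of ribosome assembly and ribosomal RNA modification, 16 fell and 2 rose. The smallest p-values belonged to Rcc1l at -1.33 ± 0.10, Noa1 at -0.94 ± 0.07 and Gtpbp10 at -0.69 ± 0.06, which act in assembly. Of 14 translation factors 7 fell, with Lrpprc, which stabilises mitochondrial messenger RNA, at -0.89 ± 0.04, the elongation factor Gfm1 at -0.82 ± 0.05 and the elongation factor Tufm at -0.63 ± 0.04. Of 20 mitochondrial aminoacyl-tRNA synthetases and related enzymes 11 fell, with Ears2 at -1.27 ± 0.09. Of 19 genes of mitochondrial DNA and RNA handling 14 fell and 1 rose, and of 20 protein import genes 17 fell and 1 rose, with Tomm20, a receptor of the outer membrane, at -0.83 ± 0.03.

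In Vhl cells with AZD8330, where 25.6% of all tested genes fell and 25.8% rose, the same lists gave 3 of 5 other subunits lower, 11 of 27 assembly genes lower and 2 higher, 4 of 14 translation factors lower and 2 higher, 10 of 20 synthetases lower, 11 of 19 DNA and RNA handling genes lower and 1 higher, and 13 of 20 import genes lower. Vhl cells with DMSO, set against control cells with DMSO, where 18.5% of all tested genes were lower and 13.8% higher, had all 5 other subunits lower, 12 of 27 assembly genes, 6 of 14 translation factors, 7 of 20 synthetases, 7 of 19 DNA and RNA handling genes and 9 of 20 import genes lower. Lonp1, the protease of the mitochondrial matrix and a known HIF target, was the gene of these lists that was higher there, at 0.66 ± 0.04. With AZD8330, where 14% of all tested genes were lower and 16% higher, Vhl cells had 1 of 5 other subunits lower, and 2 of 27 assembly genes lower and 1 higher. They also had 5 of 14 translation factors lower and 1 higher, 5 of 20 synthetases lower, 1 of 19 DNA and RNA handling genes lower and 4 higher, and 1 of 20 import genes lower and 2 higher.

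The mitochondrial ribosome translates the messengers encoded in mitochondrial DNA. With AZD8330 in Vhl cells 9 of 13 mitochondrially encoded messengers fell, with a median log2 change of -0.27, while 2 of 13 fell and 2 rose in control cells, with a median of 0.01. The interaction term passed as lower in Vhl cells for 6 of the 13. In Vhl cells with AZD8330 all 13 were lower than in control cells with AZD8330, with a median of -0.94, and in Vhl cells with DMSO 11 of 13 were lower, with a median of -0.67. The cytochrome oxidase subunit mt-Co1 had 7706, 8036 and 7916 CPM in Vhl cells with AZD8330 and 14650, 15038 and 15001 CPM in control cells with AZD8330. With DMSO it had 8907, 9043 and 8955 CPM in Vhl cells and 15456, 15099 and 13750 CPM in control cells. In the drug experiment it was thus low in all 6 Vhl libraries and high in all 6 control libraries. Untreated, it had 18105, 8281 and 22013 CPM in Vhl libraries, against 15208, 14497 and 14634 CPM in control libraries, which overlap, and 0 of the 13 messengers were called by edgeR.

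Of the 12 regulators listed for nuclear genes of mitochondria, 10 were tested, and 8 fell with AZD8330 in control cells with none higher. In Vhl cells 8 fell with AZD8330 and 1 rose. MYC is known to raise genes of mitochondrial biogenesis. Myc had 157, 157 and 160 CPM in Vhl cells with AZD8330 and 87.2, 87.0 and 81.4 CPM in control cells with AZD8330. With DMSO it had 261, 255 and 245 CPM in Vhl cells and 239, 241 and 240 CPM in control cells. Its AZD8330 change was -0.68 ± 0.03 in Vhl cells and -1.49 ± 0.04 in control cells, and the difference of 0.81 ± 0.05 passed the test (adjusted p = 1.5e-06, edgeR). Pprc1, a coactivator related to PGC-1 alpha, changed by -1.08 ± 0.10 in Vhl cells and by -1.89 ± 0.10 in control cells. Of the 10 regulators tested, 4 were lower and 1 higher in Vhl than in control cells with DMSO. With AZD8330, 0 were lower and 4 higher in Vhl than in control cells. Of all tested genes 18.5% were lower and 13.8% higher with DMSO, and 14% and 16% with AZD8330. Under DMSO Vhl cells had lower Ppargc1a, which encodes PGC-1 alpha, at -0.43 ± 0.08, lower Pprc1 at -0.39 ± 0.09 and lower Nrf1, a factor that binds the NRF1 core, at -0.30 ± 0.07. Mxi1, also on the list, averaged 22.1 CPM in Vhl cells with DMSO, against 12.5 CPM in control cells with DMSO. With AZD8330 it averaged 35.3 CPM in Vhl cells, against 18.6 CPM in control cells. The part of these regulators in the members' changes was not tested.

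In the untreated experiment no member passed the test by edgeR, where 0.0147% of all tested genes were higher and 0% lower. At an unadjusted p under 0.05 there were 2 of 77 members, against 1267 of all 13569 tested genes, a smaller share. By DESeq2's Wald test 0 members passed as well, among 246 genes higher and 109 lower over the whole table. The median log2 change was 0.10, against 0.05 over all tested genes, and 59 of 77 members had a positive value. The spread within groups was large: the common dispersion was 0.144, against 0.0161 in the drug experiment. The summed level of the members was 3108, 1738 and 1706 CPM in Vhl libraries, against 1858, 2133 and 1978 CPM in control libraries, in the order of their letters. Vhl library A thus stood above every control library, and Vhl libraries B and C below every control library. The HIF target Vegfa also set library A apart, with 38.8, 408 and 644 CPM in Vhl libraries, against 6.60, 8.29 and 6.13 CPM in control libraries. The authors' mean column named VHL in this table averages Vhl library A with control libraries B and C, so it is in doubt whether its letters name the right libraries. The astrocyte marker sum was 228 to 394 CPM in Vhl libraries, against 592 to 633 CPM in control libraries, and its part was not tested.

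Without Vhl library A the members' median was -0.25, against -0.01 over all tested genes, with 0 members past the threshold in edgeR. It was 0.25 without Vhl library B and 0.31 without Vhl library C, against 0.05 and 0.04 over all tested genes. The sign of the median thus depended on the Vhl library left out. Without the A libraries of both groups, a comparison added after the data were seen, the median was -0.29 and Mrps6 alone was called, as lower. The smallest p-values with all libraries belonged to Mrpl54 and Mrpl45. Mrpl45, which holds the ribosome near the inner membrane, had 58.2, 66.9 and 90.6 CPM in Vhl cells, against 48.6, 45.2 and 43.8 CPM in control cells, a change of 0.65 ± 0.21 with an adjusted p of 0.40 (edgeR). Mrpl54 had 24.7, 20.7 and 15.01 CPM in Vhl cells, against 14.3, 11.7 and 11.9 CPM in control cells. In the small subunit Mrps5 had 24.3, 21.9 and 15.1 CPM in Vhl cells, against 13.9, 13.8 and 15.2 CPM in control cells, and Mrps23 had 19.1, 11.8 and 7.63 CPM, against 16.8, 19.6 and 19.1 CPM. The groups overlapped for both Mrps names and did not for both Mrpl names.

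Members of special interest by role gave the following values in the drug experiment. Mrps12, a protein of the decoding centre, had 27.1, 27.4 and 27.8 CPM in Vhl cells with AZD8330 and 26.6, 29.1 and 22.6 CPM in control cells with AZD8330. With DMSO it had 29.5, 32.8 and 25.8 CPM in Vhl cells and 33.3, 37.1 and 37.8 CPM in control cells. With AZD8330 it did not pass in Vhl cells, at -0.10 ± 0.11, and fell in control cells, at -0.47 ± 0.10; its interaction term of 0.37 ± 0.15 did not pass either. Mrpl58, also called ICT1, is a peptidyl-tRNA hydrolase built into the large subunit, which can free stalled ribosomes. It had 50.3, 55.1 and 42.3 CPM in Vhl cells with AZD8330, against 64.0, 69.3 and 60.8 CPM in Vhl cells with DMSO, and 49.2, 48.9 and 51.6 CPM in control cells with AZD8330, against 77.0, 71.5 and 71.6 CPM in control cells with DMSO. It changed with AZD8330 by -0.39 ± 0.08 in Vhl cells and by -0.56 ± 0.08 in control cells. In untreated cells Mrps12 had 23.5, 10.7 and 9.54 CPM in Vhl libraries, against 12.9, 15.7 and 15.4 CPM in control libraries.

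The 3 Mrps18 genes are related copies. Mrps18a, the form in the large subunit, had 42.0, 38.0 and 37.8 CPM in Vhl cells with AZD8330, 43.3, 45.1 and 46.9 CPM in control cells with AZD8330, 47.7, 43.6 and 43.9 CPM in Vhl cells with DMSO and 57.0, 55.8 and 57.6 CPM in control cells with DMSO. It was lower in all 4 of these contrasts. Mrps18b and Mrps18c, of the small subunit, were near the filter, with highest values of 3.22 and 3.27 CPM in any library of the drug experiment. Mrps18b fell with AZD8330 in control cells at -1.21 ± 0.38, and Mrps18c passed in none of the comparisons. Words shared with other genes made up 31.6% of those of Mrps18b and 34.5% of those of Mrps18c, against 0.163% of those of Mrps18a. Mrps36, the dehydrogenase subunit, had 30.7, 35.4 and 33.3 CPM in Vhl cells with AZD8330, 42.2, 38.3 and 36.8 CPM in control cells with AZD8330, 39.2, 42.8 and 42.4 CPM in Vhl cells with DMSO and 50.2, 48.1 and 50.2 CPM in control cells with DMSO. It passed as lower in both AZD8330 and both Vhl contrasts.

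Per length, the members covered a wide range of levels. The median was 21.2 CPM per kb of the longest coding transcript in control cells with AZD8330, against 30.9 CPM per kb in control cells with DMSO, and 19.97 CPM per kb in Vhl cells with AZD8330, against 26.5 CPM per kb in Vhl cells with DMSO. Mrpl42 was highest in control cells with DMSO, at 174.5 CPM per kb, followed by Mrps6 at 171.3 CPM per kb. In control cells with AZD8330, Mrps6 stood at 289.2 CPM per kb and Mrpl42 at 87.1 CPM per kb. The order at the top thus differed between these groups. Mrpl1, Mrpl2, Mrpl9, Mrpl20, Mrps9, Mrps18b and Mrps18c were the 7 lowest in both DMSO groups, and Mrpl1 was lowest in all 4 groups. Values of Mrpl9 ranged between 0.268 and 9.97 CPM within the drug experiment.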

How the data were processed

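RNA-seq was measured in 18 libraries. The authors deposited 2 tables of estimated counts per gene, which need not be whole numbers; per the submitters' processing notes they used Salmon 0.14.1 and the mm10 build. Counts were rounded; of the values above 0, 58.8% were whole within 0.001 in the drug experiment's table and 57.7% in the other. The filter on low values asked for a mean CPM of 1 or more over a table's libraries, and edgeR 4.0.16 (R 4.3.3) with TMM scaling and the quasi-likelihood test was fitted over all groups of a table, with Benjamini-Hochberg adjustment over all tested genes and a threshold of 0.05. The 2 tables were never compared by test. The steps were tested on simulated data. DESeq2 1.42.0 and limma 3.58.1 served as alternatives, with other filters, scalings and left-out libraries. Each table has 26 gene names turned into dates, and none is a member. The authors' mean columns were not used; the one named VHL in the untreated table equals the mean of Vhl library A and control libraries B and C. Letters did not pair libraries, since libraries of the same letter had no shared deviation in every pair.

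Members, lists and tests were chosen with earlier results of these data known. Values by library are given, per comparison, for up to 4 Mrpl and 4 Mrps names in each direction with the smallest p, and always for Mrpl12, Mrps12, Mrps18a, Mrps18b, Mrps18c, Mrps30, Mrps36 and Mrpl58. Annotation is GENCODE M21 (GRCm38). At these depths members near 1 CPM rest on few counts. A further progenitor marker is not reported here and was left out of its list.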

Additional observations from a re-analysis of the deposited data

Results flagged for a closer look

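For 14 members the interaction test of edgeR found that the AZD8330 effect differed between Vhl and control cells, always with a smaller fall in Vhl cells. The difference of the log2 changes, Vhl minus control, was 0.4764 for Mrpl53, 0.4722 for Mrpl38, 0.444 for Mrpl14, 0.4322 for Mrpl18 and 0.4024 for Mrps27. It was 0.3977 for Mrpl34, 0.363 for Mrpl15, 0.3512 for Mrps16, 0.344 for Mrpl42 and 0.3399 for Mrpl50. It was 0.3271 for Mrpl12, 0.2928 for Mrps26, 0.2751 for Mrps2 and 0.2605 for Mrps7. Without control library B with AZD8330 only Mrpl38 passed, and without Vhl library A with AZD8330 only Mrpl14 and Mrpl38. In these runs 3.46% and 3.6% of all tested genes were higher, against 7.81% with all libraries.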

How the results depend on the processing

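The counts of members that fell or rose with AZD8330, in control and in Vhl cells, stayed within 1.5 times their value in every alternative run. Shares in brackets are those of all tested genes, and with a minimum of 5 CPM 72 members were tested. For Vhl against control cells with DMSO, the number higher was 1 (13.8%). It was 2 with total counts alone (17.4%), 0 with no filter (5.79%), 2 with a minimum of 5 CPM (20%) and 0 with DESeq2 (13%). With single libraries left out it was 0 to 3 (11.7% to 16.1%). With AZD8330, the number lower was 9 (14%). It was 17 with DESeq2 size factors (17.2%), 5 with no filter (6.14%), 16 with a minimum of 5 CPM (21.3%) and 15 with DESeq2 (17.1%). With single libraries left out it was 8 to 18 (12% to 15.9%). The number higher was 4 (16%), and 1 to 4 with single libraries left out (11.5% to 15.9%). In the difference of AZD8330 effects the number higher was 14 (7.81%), and 1 to 12 with single libraries left out (3.46% to 7.25%). The number lower was 0 (4.96%), but 1, Mrps6, with total counts (6.49%) or a minimum of 5 CPM (10.3%). With single libraries left out it was 0 to 1 (3.86% to 6.84%). Untreated, the number lower was 0, and 1 without both A libraries. The cause of these shifts was not tested.

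With the replicate letter as a block, 0 members were higher and 43 lower in Vhl cells with DMSO, 12 were higher in the difference of effects, and no other count moved by over 1.5 times; the correlations of same-letter deviations lay between -0.081 and 0.053, so the letters give no pairing. No result changed sign past its threshold in the alternatives run.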
